A study of Mus musculus with 61 samples.

Results

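The genes described here are the nuclear-encoded subunits of the mitochondrial respiratory chain and ATP synthase in mouse liver. They were chosen by symbol, as the rows of the count table whose names begin with Nduf, Uqcr, Cox4 to Cox8 or Atp5 or are Sdha, Sdhb, Sdhc or Sdhd, leaving out rows named as pseudogenes. This gave 90 of the 18754 genes in the table, and 88 of them passed a filter on low counts that kept 16165 genes. Cox4i2 and Cox8b did not pass it. By complex the 88 were 36 subunits and 7 assembly factors of complex I, 4 subunits of complex II, 8 of complex III, 16 rows of complex IV and 15 of complex V. The other 2 rows, Atp5s and Atp5sl, carry the Atp5 name but are no structural subunits of ATP synthase. The symbol rule also took in 5 rows of complex IV that are tissue isoforms or related proteins (Cox6a2, Cox6b2, Cox7a1, Cox7a2l and Ndufa4l2). The remaining 74 rows are called the subunits below.

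Liver RNA was sequenced from mice of the 8 inbred strains that founded the Diversity Outbred stock. There were 8 libraries each of strain-129 (whose label is the number alone), NOD, NZO, PWK and WSB, 7 each of B6 and Cast, and 6 of AJ. Cast, PWK and WSB are strains derived from wild mice, NZO is known for obesity and NOD for autoimmune diabetes. All groups shared the same diet, high in fat and sugar and labelled as 45% fat, so no group shows the genes on another diet. The labels give no sex or age, and whether each library is of its own mouse is not stated there. Tests below thus rest on the spread among libraries, part of which may be technical.

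The respiratory chain sits in the inner mitochondrial membrane. Complex I takes electrons from NADH and complex II from succinate, complex III passes them from ubiquinol to cytochrome c, complex IV hands them to oxygen, and complex V uses the proton gradient built by complexes I, III and IV to make ATP. Most subunits are encoded in the nucleus and meet a few that are encoded in mitochondrial DNA. In the liver the chain disposes of the NADH and reduced flavins that come from the oxidation of fatty acids and amino acids.

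The genes Atp5g1, Atp5g2 and Atp5g3 encode the membrane ring subunit c of ATP synthase, the part that turns as protons pass. Their sequences are shown first because the strain pattern with the smallest p among the 88 genes, that of Atp5g2, depends on how reads of near-identical sequences are counted. The lines below give the last 225 coding bases before the stop codon of each gene, from the GENCODE M21 transcripts (GRCm38), with capitals at the 57 positions where the 3 genes are not alike. Of the 75 codons, 52 differed between the genes and 0 changed the amino acid.
Atp5g1: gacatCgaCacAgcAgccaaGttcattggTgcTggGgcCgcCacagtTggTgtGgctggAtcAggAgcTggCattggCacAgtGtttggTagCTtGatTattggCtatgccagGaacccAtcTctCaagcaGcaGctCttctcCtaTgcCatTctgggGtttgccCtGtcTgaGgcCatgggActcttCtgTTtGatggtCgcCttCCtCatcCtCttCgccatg
Atp5g2: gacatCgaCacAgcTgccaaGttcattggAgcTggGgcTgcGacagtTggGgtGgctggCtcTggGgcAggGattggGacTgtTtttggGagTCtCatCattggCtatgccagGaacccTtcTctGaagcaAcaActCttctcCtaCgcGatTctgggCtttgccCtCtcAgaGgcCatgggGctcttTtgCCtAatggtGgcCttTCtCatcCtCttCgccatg
Atp5g3: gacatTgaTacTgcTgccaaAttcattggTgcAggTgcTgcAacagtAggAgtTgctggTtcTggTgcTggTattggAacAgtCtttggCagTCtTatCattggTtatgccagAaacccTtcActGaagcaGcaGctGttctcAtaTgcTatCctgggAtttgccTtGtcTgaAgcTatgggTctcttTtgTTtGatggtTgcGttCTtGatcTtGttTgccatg
Atp5g1 and Atp5g2 were alike at 84.9% of these bases, Atp5g1 and Atp5g3 at 80.0%, and Atp5g2 and Atp5g3 at 78.7%. The 3 genes thus differed from each other within this stretch, but the Atp5g2 stretch also lies, without a mismatch, in the transcript of Gm10175. Gm10175 is annotated as a transcribed processed pseudogene at chr7:23946646-23947290, whereas Atp5g2 lies at chr15:102662864-102672352. The transcripts of both were 100% alike over 645 bases.

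Atp5g2 counted alone split the strains into 2 sets that did not overlap. Its level in AJ ran from 49.1 to 56.3 CPM (reads scaled to library size; median 54.7), in Cast from 50.97 to 58.4 (median 57.1), in NOD from 49.8 to 59.1 (median 53.7) and in PWK from 50.9 to 61.8 (median 57.4). In strain-129 it ran from 1.51 to 6.12 CPM (median 3.88), in B6 from 2.08 to 5.0 (median 2.98), in NZO from 1.71 to 5.51 (median 3.67) and in WSB from 1.92 to 5.48 (median 3.75). Gm10175 had the opposite pattern, with means of 56.7 CPM in strain-129, 55.4 in B6, 52.2 in NZO and 57.8 in WSB, and of at most 0.58 CPM in the other 4 strains. Every library was thus high in one row and low in the other.

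The sum of Atp5g2 and Gm10175 was nearly even across strains. Its mean ran from 54.0 CPM in AJ to 61.8 ± 5.51 (SD) in WSB, and single libraries lay between 49.3 and 70.9 CPM. The range of the strain means of log2 CPM, the highest less the lowest, was 4.20 for Atp5g2 alone and 0.19 for the sum. Among the 8 strains the adjusted p was 5.32e-34 for Atp5g2 alone and 0.00661 for the sum (edgeR quasi-likelihood test, Benjamini-Hochberg adjustment over all genes, as for every adjusted p below). Atp5g2 alone passed the threshold of 0.05 against the mean of the other strains in 8 of 8 strains. The sum passed it in WSB (log2 fold change 0.12 ± 0.04 SE, adjusted p = 0.00812) and in no other strain. Which locus the reads came from, and whether the strains' own sequences match the reference at either locus, was not tested.

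**Figure D1:**
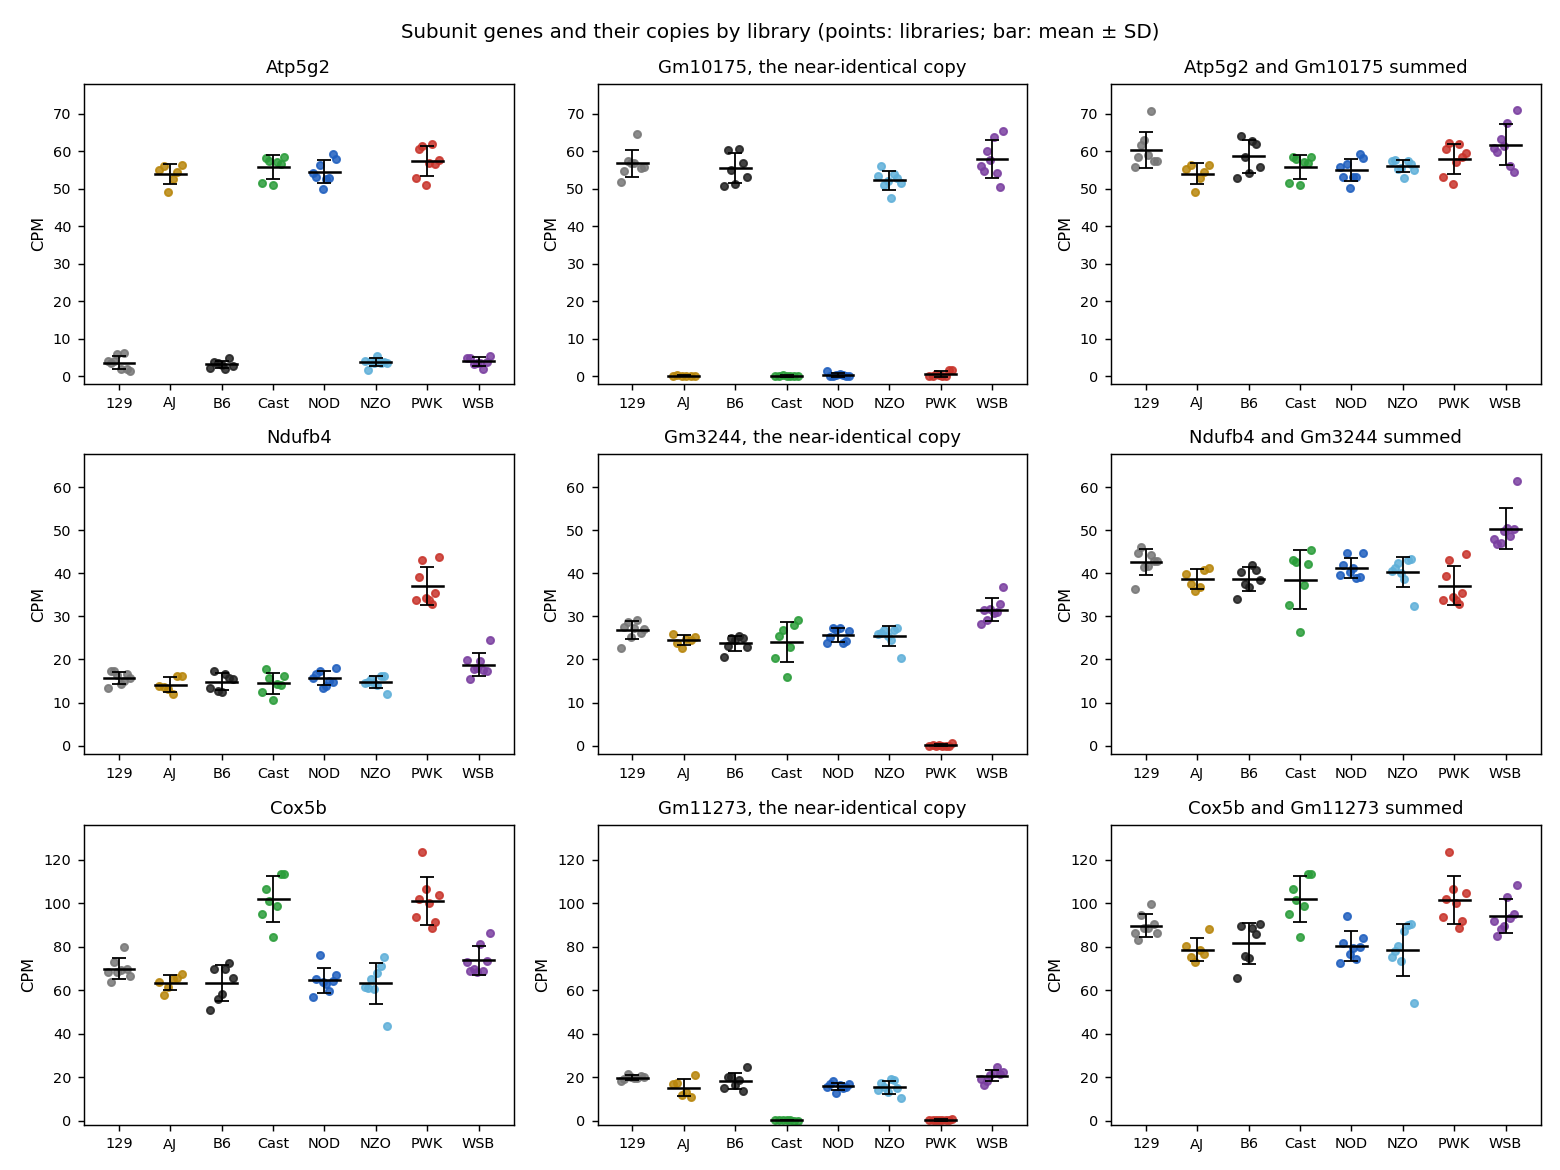
CPM of 3 subunit genes (left), of their near-identical copies (middle) and of the sums (right) by strain, with points for libraries and bars for mean ± SD. Atp5g2 and Gm10175 trade places between strains, whereas their sum stays between 49.3 and 70.9 CPM in all 60 libraries.

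Ndufb4 and Cox5b showed the same kind of dependence. Ndufb4, an accessory subunit of complex I at chr16:37647170-37654453, matches the processed pseudogene Gm3244 (chr15:73809507-73809896) at 100% over 390 bases. Ndufb4 alone ran from 32.9 to 43.8 CPM in PWK (median 34.9), above every library of the other strains, whose means lay between 14.1 and 18.8. Gm3244 had a mean of 0.116 CPM in PWK and of 23.8 to 31.5 elsewhere. Counted alone, Ndufb4 in PWK had a log2 fold change of 1.26 (adjusted p = 1.56e-25). The sum of both rows was 37.1 ± 4.55 CPM in PWK, with a log2 fold change of -0.15 ± 0.06 (adjusted p = 0.0245), the opposite sign. The sum was highest in WSB, at 50.3 ± 4.72 CPM (0.35 ± 0.05, adjusted p = 5.45e-07), with 46.8 CPM in its lowest library.

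Cox5b, a subunit on the matrix side of complex IV, matches Gm11273 (chr13:21501029-21501418, annotated as protein coding) at 99.2% over 390 bases. Cox5b alone had means of 102 CPM in Cast and 101 in PWK and of 63.1 to 73.7 in the other strains. Gm11273 had means of at most 0.206 CPM in Cast and PWK and of 15.1 to 20.6 elsewhere. The sum remained called higher in Cast (0.25 ± 0.06, adjusted p = 0.000398) and PWK (0.24 ± 0.06, adjusted p = 0.000431), where Cox5b alone had 0.53 and 0.52. It was called lower in AJ (-0.18) and NZO (-0.18).

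Such copies were looked for across all members. Of the 90 members, 32 had at least 1 other annotated gene with 95% identity or more over 150 bases or more, and 10 had a copy at another locus among the rows of the count table that also covered at least 0.5 of the coding length (11 rows, 9 of them pseudogenes). Atp5g1 and Ndufaf7 had matches at other loci that were shorter than that, and these were not summed. Other members, among them Ndufa12 (1) and Atp5o (3), had similar genes with no row in the count table. Reads shared with those could not be added, so such members carry a like uncertainty. For Ndufab1 with Gm4459 the range of strain means fell from 0.65 to 0.53 when the rows were summed, and for Uqcr10 with 4930481A15Rik from 0.62 to 0.56. For Cox7c, Atp5f1, Atp5h, Atp5l and Cox7a2l it moved by at most 0.01. The ratio of a member to a copy is uncertain in every strain, so Atp5g2, Ndufb4 and Cox5b are described by their sums from here on, and the other 7 by their own rows, with counts of calls given both ways. Atp5f1, Cox4i1 and others also overlap neighbouring genes in the annotation, and their values share that uncertainty where reads were counted without strand.

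With the copy added, the 3 subunit c genes could be compared per kilobase of exon. Atp5g3 gave a median of 65.4% (PWK) to 69.8% (Cast) of their summed level. Atp5g2 with its copy gave medians of 18.3% in Cast to 22.1% in B6. Atp5g1 gave medians of 10% in B6 to 12.8% in WSB, so on this scale the 3 genes kept the same order in every strain. The order of Atp5g1 and Atp5g2 depends on the exon lengths used, 4912 and 1675 bases. Reads of Gm10175 were also divided by the length of Atp5g2. In CPM, Atp5g1 had a mean of 94.9 over all libraries, above the strain means of the Atp5g2 sum (54.0 to 61.8).

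Most of the 88 genes differed among the strains, as most liver genes did. The test among the 8 strains called 74 of 88 (84.1%) against 89.8% of all 16165 genes tested. With the copies summed it also called 74. The differences were small: the range of strain means had a median of 0.464 log2 units over the 88 genes, 0.971 over all genes and 0.604 over the 3891 genes of like abundance (mean log2 CPM between 4.67 and 7.92, the span of the middle 90% of the subunits). The SD between libraries of a strain was also small, with a median of 0.158 against 0.196 for genes of like abundance. Between-strain variance was a median of 44.9% of the total for the 88 genes and 49.7% for genes of like abundance.

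Several subunits passed in no strain. Ndufs1 and Ndufs8, which carry iron-sulfur clusters of complex I, Ndufa9 and Ndufa10 of complex I, Uqcrq of complex III and Atp5c1, the central stalk subunit gamma of ATP synthase, were not called in any strain against the mean of the other 7. The same held for Ndufb3 and Ndufaf7. Ndufs1 had log2 fold changes of -0.14 in B6 and NOD to 0.09 in AJ and PWK.

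Each strain was then compared with the mean of the other 7, which share libraries between comparisons. WSB stood on the high side: 45 of 88 genes were called higher (22.6% of all genes were) and 5 lower (22.4%), with a median log2 fold change of 0.16 over the 88. NZO stood on the low side, with 6 called higher (26.7% of all genes) and 34 lower (19.5%) and a median of -0.11. B6 had 5 called higher (19.4% of all genes) and 24 lower (14.7%), with a median of -0.09. NOD had 5 higher (16.7%) and 14 lower (11.6%).

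Cast and PWK had calls in both directions. In Cast 30 genes were called higher (30.8% of all genes) and 18 lower (28.8%), and in PWK 21 higher (22.5%) and 14 lower (22.7%). The shares of members higher were close to those of all genes, and the shares lower were below them. In strain-129, 10 were higher (13.7% of all genes) and 4 lower (10.9%), and in AJ 7 higher (13.1%) and 11 lower (11%). Among genes of like abundance the shares were 30.8% higher and 16% lower in WSB, 19.5% and 25.1% in NZO, and 11% and 21.2% in B6. With the copies summed, WSB had 47 higher and 4 lower, NZO 6 and 32, B6 5 and 19, Cast 29 and 17, NOD 4 and 13, PWK 19 and 16, strain-129 11 and 3, and AJ 6 and 10.

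These splits depend on the scaling of the libraries. Without scaling factors (library totals only) WSB had 20 higher and 11 lower, NZO 3 and 55, B6 15 lower, and strain-129 23 higher and 2 lower. The shares of all genes were then 12.4% higher and 33.5% lower in WSB, 21.5% and 25.1% in NZO, 8.33% lower in B6, and 16.8% and 7.33% in strain-129. Under that scaling the median of all genes was itself at -0.15 in WSB, -0.05 in NZO, 0.07 in B6 and 0.04 in strain-129, against -0.01, 0.02, 0.01 and 0.00 with scaling factors. The WSB median over the 88 genes was 0.03 on that scale, against -0.15 for all genes. With scaling factors it was 0.16, against -0.01 for all genes. Of the calls described below, those of Sdhb, Sdhc, Sdhd, Uqcrc1 and Atp5o in WSB ended under it. So did those of Atp5b in B6, Cox7a2l in NZO and Ndufa4 in PWK. Only the 132 named calls were followed in this way. Those of other members, such as Uqcr11, Uqcrb, Ndufs3, Atp5d and Atp5h in WSB, were not.

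Markers of other cells also differed between these strains. The 5 lymphocyte markers summed to a median of 9.2 CPM in WSB and 10.9 in Cast, against 45.3 in B6, 35.7 in NZO and 47.6 in NOD. Strain-129 had 15, PWK 21.1 and AJ 34.6. The 7 macrophage markers had medians of 122 CPM in WSB, 117 in Cast, 373 in B6 and 239 in NZO. NOD, at 133, and strain-129, at 135, lay near WSB, with PWK at 165 and AJ at 166. Their part in the result was not tested. In bulk RNA, fewer cells of a type and less RNA per cell cannot be told apart.

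**Figure D2:**
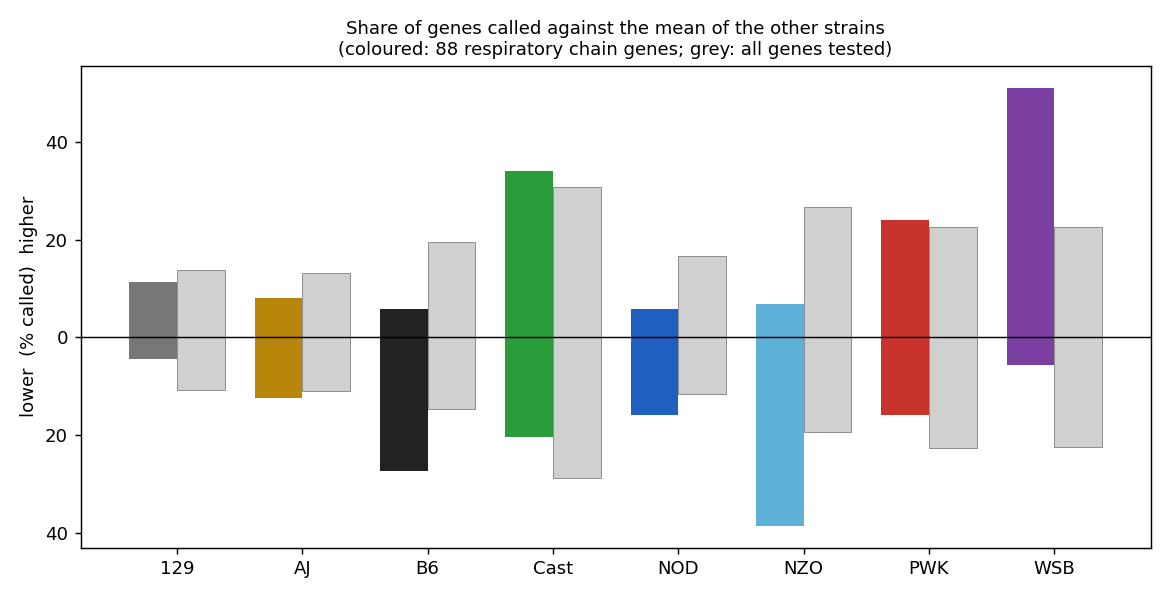
Percent of genes called higher (above 0) or lower (below 0) in each strain than the mean of the other 7, for the 88 respiratory chain genes (coloured) and all genes tested (grey). WSB has the tallest coloured bar above 0, at 51.1% against 22.6%, and NZO the longest below 0, at 38.6% against 19.5%.

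Among pairs of strains, AJ and NOD differed in the fewest members, 10 (11.4%, against 16.2% of all genes), and NZO and WSB in the most, 53 (60.2%, against 49.8%). Of those 53, 47 were higher in WSB and 6 in NZO.

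The mean log2 CPM of the 74 subunits, with copies summed, placed the libraries on a narrow scale. It ran from 6.36 to 6.62 (median 6.45) in WSB, 6.30 to 6.45 (median 6.35) in strain-129, 6.20 to 6.47 (median 6.34) in PWK and 6.20 to 6.40 (median 6.29) in NOD. It was 6.23 to 6.37 (median 6.32) in AJ, 6.03 to 6.38 (median 6.32) in B6, 6.0 to 6.61 (median 6.52) in Cast and 5.76 to 6.39 (median 6.28) in NZO. The strains overlapped, although the lowest WSB library lay above the median of strain-129, PWK, NOD, AJ, B6 and NZO.

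The low end of NZO was library 8. It had the lowest mean in each of the 5 complexes, and at 5.76 it lay well under the next NZO library at 6.23. The summed level of the 6 hepatocyte markers was 30600 CPM in that library against 48200 to 101000 in the other 7 of NZO. Its macrophage markers, at 566 CPM, and its lymphocyte markers, at 233 CPM, were the highest of NZO (the others 135 to 377 and 18.4 to 40.6). Their part in the result was not tested. Without NZO 8, 29 members were called lower in NZO, with a median of -0.07, and the count of members called lower in NOD went from 14 to 22. The shares of all genes in that fit are not given, so these shifts may not be particular to the members.

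**Figure D3:**
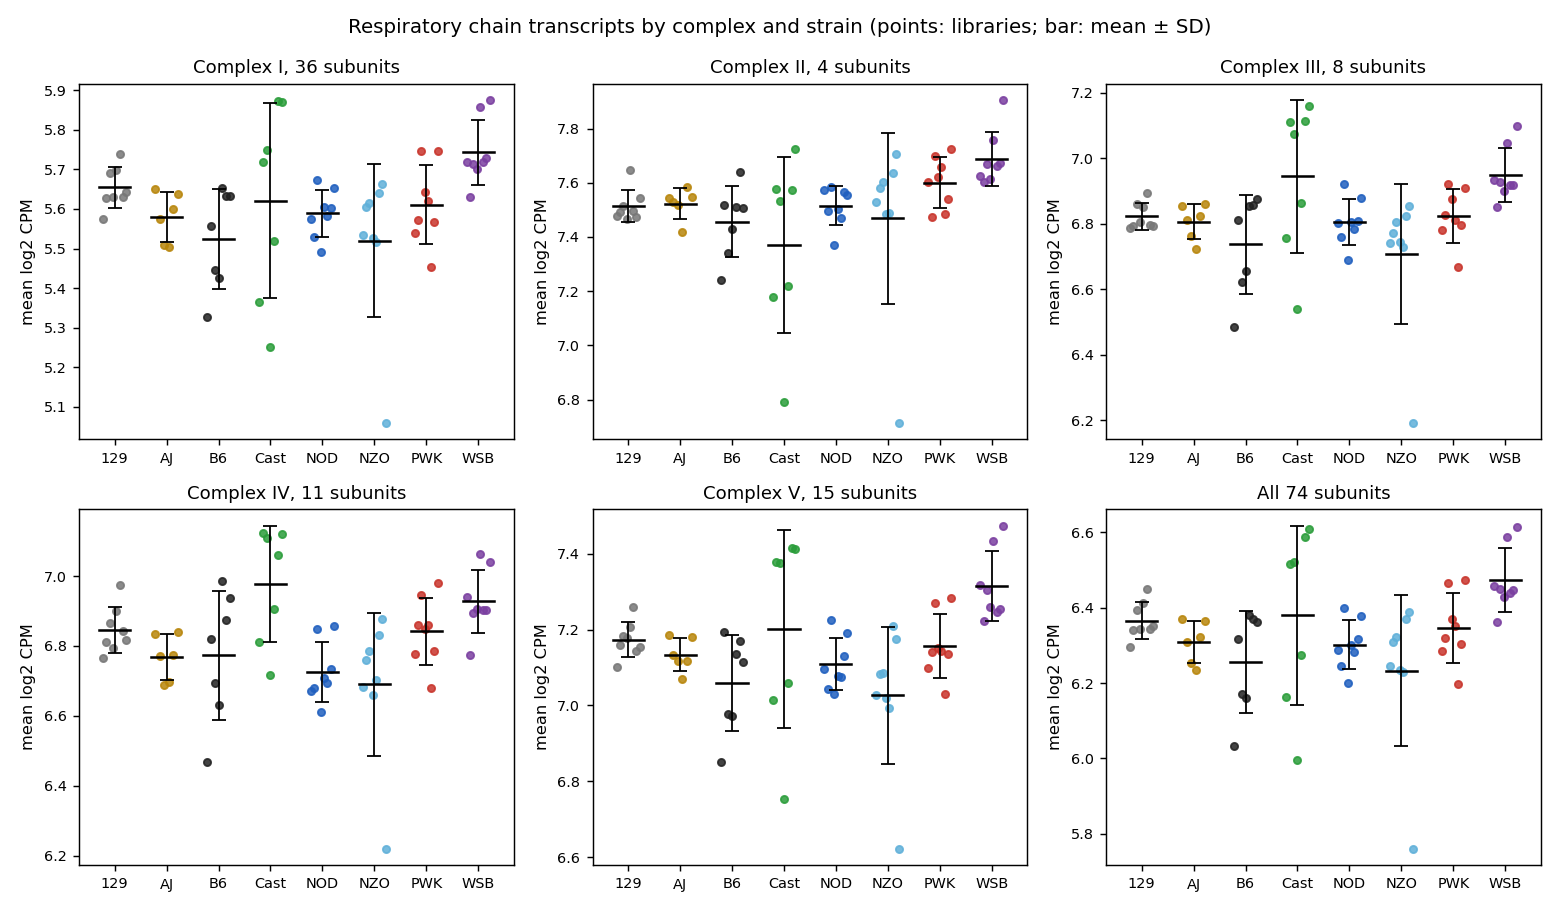
Mean log2 CPM of the subunits of each complex, and of all 74, by strain (copies summed), with points for libraries and bars for mean ± SD. WSB libraries sit at 6.36 or above for all 74, NZO library 8 is the lowest point in every panel, and Cast libraries spread from 6.0 to 6.61.

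The libraries of Cast were the most spread, with an SD of 0.238 against 0.049 to 0.200 in the other strains. Libraries 5, 1 and 6 had means of 6.0, 6.16 and 6.27, and libraries 2, 3, 7 and 8 had 6.52, 6.52, 6.59 and 6.61. The coactivator Ppargc1a, which drives transcription of respiratory chain genes in many tissues, was at 37.4, 108 and 86.7 CPM in the first 3 of these libraries and at 60.2, 15.4, 13.1 and 12.5 in the other 4. The low-subunit libraries thus included the highest Ppargc1a values of the strain. Leaving out Cast library 5 gave 36 members higher and 13 lower in Cast, and leaving out library 7 gave 25 and 19. The shares of all genes in these fits are not given, so the shifts may not be particular to the members.

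Within strains the subunits moved together from library to library. After the strain mean was taken off, the median Pearson correlation over the 2701 pairs of the 74 subunits was 0.68 across the 60 libraries, and 0.63 without NZO 8 and NOD 1. Pairs of genes of like abundance had a median of 0.02. Other lists also moved together, with medians of 0.66 within the mitochondria-encoded subunits and 0.58 within the cytosolic ribosomal proteins. The citric acid cycle genes had 0.38 and the mitochondrial ribosomal proteins 0.2. By complex the median was 0.63 in I, 0.81 in II, 0.69 in III, 0.79 in IV and 0.72 in V, and between the subunits and the mitochondria-encoded subunits it was 0.28. Pairs with subunits of the other complexes had medians of 0.68 for I, 0.71 for II and 0.7 for III, IV and V. In I, III and V the shared movement was thus about as close across complexes as within them. These are descriptions over libraries that also share depth and RNA quality. The labels give no sex, so whether the libraries of a strain mix both sexes cannot be read from them. Elovl3 was the 1 of 4 listed brown fat markers with a row, so brown fat cannot be read from it. Elovl3 was at 377 to 722 CPM in PWK libraries 3, 4, 5 and 9, whose subunit means were 6.35 to 6.47. It was at 0.93 to 1.94 in the other 4 of PWK (6.20 to 6.32). In B6 it was at 76.9 to 343 CPM in libraries 6, 7 and 8 (subunit means 6.36 to 6.38) and at 0.778 to 6.36 in the other 4 (6.03 to 6.32). In Cast it was at 320 and 1010 CPM in libraries 7 and 8 (6.59 and 6.61) and at most 5.18 in the others. In NOD, with 892 to 1090 CPM in libraries 5 to 8, the subunit means of both sets overlapped. The sets also overlapped in strain-129 (220 to 455 CPM in libraries 6 to 9) and WSB (1140 to 1250 in libraries 5 to 8). The same held in AJ (32.2 and 78.1 in libraries 6 and 8) and NZO (87.4 to 149 in libraries 5 to 7). Its part in the shared movement was not tested. Ndufa7, an accessory subunit of complex I, followed the mean of the other subunits least closely among the subunits without a copy row (0.50).

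Complex I is the largest of the complexes, and its subunits were the least abundant per length. The median over its 36 subunits was 31.2 CPM per kilobase of exon, against 87.9 in complex II, 85.2 in III, 91.4 in IV and 59.1 in V. In WSB, 19 of the 36 were called higher and 2 lower with copies summed (22.6% and 22.4% of all genes), and in NZO 4 were higher and 16 lower (26.7% and 19.5%). In B6, 9 were lower and 3 higher (14.7% and 19.4% of all genes). Among genes of like abundance 21.2% were lower and 11% higher in B6, and the complex I counts there were near these shares. For WSB the shares of genes of like abundance were 30.8% higher and 16% lower, and for NZO 19.5% and 25.1%. In PWK, 9 higher and 8 lower were near the shares of all genes (22.5% and 22.7%).

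Ndufs7 carries the last iron-sulfur cluster before ubiquinone. Its libraries in NZO ran from 18.3 to 27.5 CPM (median 26.1), and those of the other strains from 28.6 to 46.3. All 8 NZO libraries were below every other library. On the log2 scale the fold change was -0.48 ± 0.05 in NZO (adjusted p = 2.27e-11) and 0.39 ± 0.05 in Cast (adjusted p = 2.18e-09), where the libraries ran from 36.2 to 46.3 CPM. Of all genes tested, 0.148% lay below all other libraries in NZO. The gene lies at chr10:80249121-80256794.

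Ndufv2, the iron-sulfur partner of the NADH-binding subunit, was highest in Cast, from 79.0 to 94.5 CPM (median 93.2), while NZO ran from 40.5 to 65.0 (median 59.8). Its log2 fold change in Cast was 0.53 ± 0.05 (adjusted p = 5.79e-15), and all 7 Cast libraries were above the mean of the other strains. It was lower in B6 (-0.23), AJ (-0.21), NZO (-0.17) and NOD (-0.15). Ndufv1, which binds NADH, did not share the rise in Cast (-0.07 ± 0.06, adjusted p = 0.329) and was higher in PWK (0.25 ± 0.05, adjusted p = 0.000156), all 8 libraries above the mean of the other strains. Ndufs3, another core subunit, was higher in PWK (0.33) and WSB (0.21) and lower in B6 (-0.25) and NZO (-0.20).

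The accessory subunits of complex I surround the core. Ndufa12, near the end of the matrix arm, ran from 46.7 to 61.4 CPM in WSB (median 55.7) and from 22 to 29.7 in B6 (median 26.8). PWK lay near B6, from 26.5 to 35.4 CPM (median 30), and the other strains ran from 33.0 to 52.6. B6 and WSB did not overlap each other. In log2 units the fold change was 0.57 ± 0.05 in WSB (adjusted p = 5.73e-14), -0.64 ± 0.06 in B6 (adjusted p = 5.93e-13) and -0.44 ± 0.06 in PWK (adjusted p = 1.81e-09).

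Ndufc1 and Ndufc2 are partners at the membrane arm, and their strain patterns were not the same. Ndufc1 ran from 8.48 to 12.8 CPM in PWK (median 10.3), from 15.4 to 28.4 in Cast and from 17.5 to 22.8 in WSB, with 12 to 18.1 in the other strains. It was lower in PWK (-0.72 ± 0.07, adjusted p = 2.59e-12) and higher in Cast (0.48 ± 0.07, adjusted p = 4.02e-08) and WSB (0.34 ± 0.07, adjusted p = 4.26e-05). Ndufc2 was called in all 8 strains: higher in WSB (0.50), AJ (0.29), strain-129 (0.22) and NOD (0.19), and lower in NZO and PWK (-0.35 each), B6 (-0.28) and Cast (-0.22). Cast was thus high in one and low in the other.

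Ndufs4 and Ndufa7 went against the direction of most members in WSB. Ndufs4, an accessory subunit needed to complete the matrix arm, ran from 22.2 to 32.5 CPM in WSB (median 27.8) and had means of 37.7 to 47.3 in the other strains. Its log2 fold change in WSB was -0.59 ± 0.06 (adjusted p = 1.81e-12), with 0 of 8 libraries above the mean of the other strains. Ndufa7 was lower in WSB (-0.31) and PWK (-0.54 ± 0.06, adjusted p = 4.04e-11) and higher in B6 (0.30) and strain-129 (0.26). These were the 2 complex I subunits called lower in WSB, whether or not copies were summed.

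Ndufa6, which binds the acyl carrier protein Ndufab1 in complex I, split the strains. Its means were 72.8 ± 5.95 CPM in WSB, 71.6 ± 6.59 in PWK and 67.5 ± 6.51 in B6, against 44.7 ± 5.24 in NZO, 46.9 ± 3.06 in AJ and 52.7 to 53.4 in the others. The lowest library of these 3 high strains was at 61.2 CPM and the highest of the other 5 at 58.8, so the 2 sets did not overlap, but they were formed after the values were seen. The log2 fold change was 0.41 in WSB (adjusted p = 4e-10), 0.38 in PWK (adjusted p = 1.78e-09) and -0.40 in NZO (adjusted p = 3.19e-09). Ndufa13, which is also known as the cell death gene Grim19, was lower in NZO (58.7 ± 10.5 CPM, -0.41 ± 0.10, adjusted p = 0.000302) and higher in PWK (96.1 ± 12.7, 0.40 ± 0.09, adjusted p = 0.000185).

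**Figure D4:**
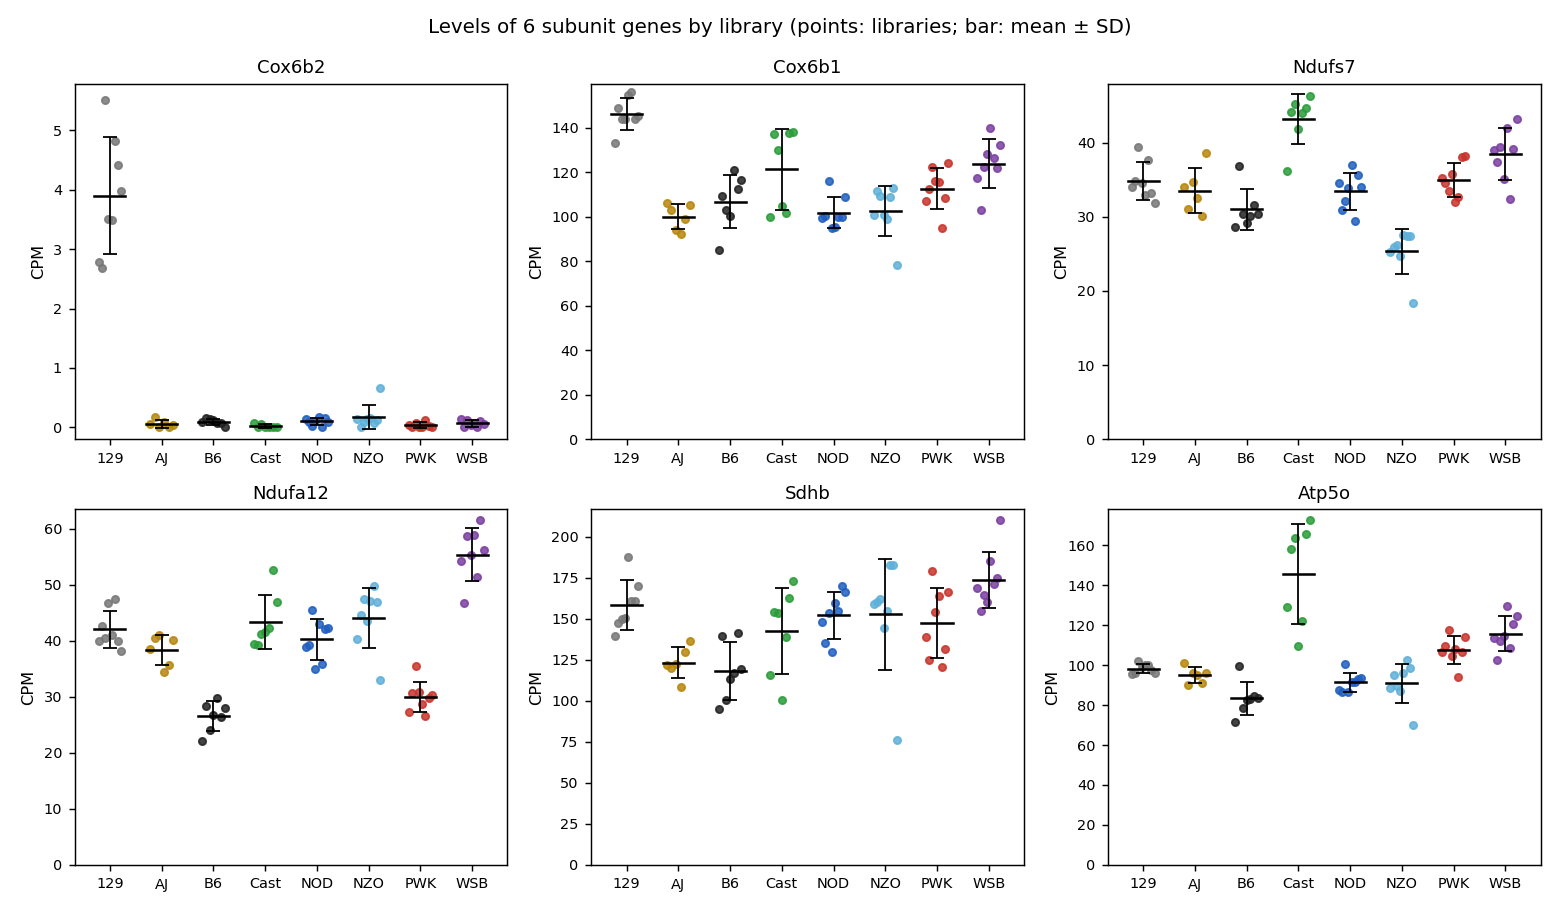
CPM of 6 subunit genes by strain, with points for libraries and bars for mean ± SD. Cox6b2 lies at 2.68 CPM or more in strain-129 and at 0.664 or less elsewhere, all NZO libraries of Ndufs7 are below the other strains, and WSB and B6 libraries of Ndufa12 do not overlap.

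Assembly factors of complex I bring the subunits together and are not part of the finished complex. Ndufaf2 ran from 1.63 to 3.65 CPM in Cast (median 2.18) and from 4.87 to 6.72 in NOD (median 5.81). It was lower in Cast (-0.93 ± 0.10, adjusted p = 8.03e-12) and NZO (-0.26) and higher in NOD (0.53 ± 0.08, adjusted p = 4.95e-07), PWK (0.33), B6 (0.30) and strain-129 (0.26). The NZO call of Ndufaf2 ended with the Rn18s-rs5 share as a covariate (adjusted p = 0.0905) and the strain-129 call without library 9 (0.0779). Ndufaf4 was higher in WSB (0.60) and Cast (0.57), where 1 library reached 53.5 CPM and the lowest was at 16.9, and lower in B6 (-0.43, ended without B6 library 2 or 3). Ndufaf6 was higher in PWK (0.51) and WSB (0.46) and lower in AJ (-0.50), NOD (-0.43) and Cast (-0.33). Ndufaf3 was lower in WSB (-0.57 ± 0.09, adjusted p = 6.5e-07) and higher in Cast (0.40) and PWK (0.39). The 7 factors thus did not share a pattern, and their range of strain means had a median of 0.865 log2 units, against 0.476 for the 36 subunits. Atp5sl, also a factor for complex I assembly, is described after complex V and was not among the 7.

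Complex II links the chain to the citric acid cycle as succinate dehydrogenase and holds no mitochondria-encoded subunit. Sdhb, its iron-sulfur subunit, ran from 155 to 210 CPM in WSB (median 170), from 94.9 to 141 in B6 (median 117) and from 108 to 136 in AJ (median 122). WSB lay above every B6 and AJ library. The log2 fold change of Sdhb was 0.30 ± 0.08 in WSB (adjusted p = 0.00213), -0.34 ± 0.09 in B6 (adjusted p = 0.00262) and -0.27 ± 0.10 in AJ (adjusted p = 0.0339). The AJ call ended without any one of AJ libraries 1, 2, 3 or 4 (adjusted p = 0.0621, 0.0681, 0.0618 and 0.104), with the replicate number as a block (0.0657) and without NZO 3, 4, 6 and 7 (0.0604). The membrane anchors were also higher in WSB, Sdhc by 0.19 (adjusted p = 0.0121) and Sdhd by 0.18 (adjusted p = 0.0113), the last with 0.13 (adjusted p = 0.0739) without WSB 9.

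Sdha, the flavoprotein that oxidises succinate, was not called in WSB (0.08 ± 0.08, adjusted p = 0.42). It was lower in Cast, with libraries from 246 to 531 CPM (median 430; -0.27 ± 0.09, adjusted p = 0.0081), as was Sdhc (-0.25 ± 0.07, adjusted p = 0.00154). Those Cast libraries overlapped the other strains. Without Cast library 5 the Sdha value was -0.18 (adjusted p = 0.0733).

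Complex III has a few catalytic subunits and large core proteins of peptidase descent. Uqcrc1, a core protein, ran from 107 to 147 CPM in PWK (median 127), from 158 to 296 in Cast (median 248) and from 179 to 200 in strain-129 (median 190). Its fold change on the log2 scale was -0.56 ± 0.08 in PWK (adjusted p = 2.25e-08) and 0.43 ± 0.08 in Cast (adjusted p = 2.17e-06). Every PWK library was below every Cast library. Its partner Uqcrc2 was at 188 ± 10.7 CPM in PWK and was not called there (0.03 ± 0.06, adjusted p = 0.692), so the 2 core proteins had different values in the same libraries. The difference between their folds was not tested.

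Uqcrfs1, the Rieske iron-sulfur protein, was higher in PWK (0.26 ± 0.05, adjusted p = 9.84e-06) and Cast (0.28 ± 0.05, adjusted p = 5.25e-06). Uqcrh, the hinge protein that helps cytochrome c to dock, ran from 103 to 131 CPM in WSB and from 65.5 to 87.2 in NZO, and these did not overlap. Its log2 fold change was 0.30 ± 0.05 in WSB (adjusted p = 1.99e-07) and -0.27 ± 0.05 in NZO (adjusted p = 5.89e-06). In WSB 4 of the 8 subunits of complex III were higher, which were Uqcrh, Uqcrc1, Uqcr11 (0.21) and Uqcrb (0.17). The share higher was 22.6% of all genes and 30.8% of those of like abundance. In NZO 3 of the 8 were lower (19.5% of all genes and 25.1% of those of like abundance).

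Complex IV, cytochrome c oxidase, has several subunits that come in a general or liver form and a form of muscle, testis or lung. Cox6b2 is known as the testis form of Cox6b. Its libraries in strain-129 ran from 2.68 to 5.51 CPM (median 3.75), backed by 63 to 212 reads, while the other strains had means of 0.018 to 0.173 CPM and at most 0.664 CPM, in NZO library 8 (21 reads). The other 51 libraries outside strain-129 and NZO 8 held at most 5 reads. All strain-129 libraries were above all others (adjusted p in strain-129 = 4.46e-25), as was true of 0.0928% of all genes tested. No fold change is given because several libraries of each other strain were at or near 0 reads. The gene lies at chr7:4751792-4753094.

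Cox6b1, the form that liver uses, was also highest in strain-129. It ran from 133 to 156 CPM there (median 145), from 92.4 to 106 in AJ and from 94.9 to 116 in NOD, and Cast and WSB reached 138 and 140. Its log2 fold change in strain-129 was 0.42 ± 0.05 (adjusted p = 6.85e-09). Cox6b2 gave a median of 1.63% of the summed level per length of both forms in strain-129 (1.14 to 2.39%) and at most 0.537% in any other library.

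Muscle forms were low in all strains. Cox7a1 gave a median of 0.497% (NZO) to 1.96% (AJ) of its sum with Cox7a2, and was called lower in NZO (0.196 ± 0.0989 CPM, -1.22 ± 0.36, adjusted p = 0.00473). Cox4i2, of lung, gave at most 0.427% of its sum with Cox4i1. Cox6a2 and Cox8b, of heart and skeletal muscle, reached 5.37% and 3.6% of their sums in NOD library 1. Cox6a2 was called higher in NOD (2.37 ± 0.58, adjusted p = 0.00129), and this rested on that library, at 6.14 CPM against at most 0.218 in the other 7. Without NOD 1 the value was -1.69 (adjusted p = 0.143). The 7 skeletal muscle markers summed to 2340 CPM in NOD 1, with Myh4 at 1402, Acta1 at 419 and Ckm at 269 CPM, against a median of 6.71 CPM over the NOD libraries.

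Of the ordinary subunits of complex IV, several were higher in Cast, where 7 of 16 rows were called higher (30.8% of all genes and 39.5% of those of like abundance) and 2 lower (Cox6b2 and Ndufa4l2). That share of the rows is near the share among genes of like abundance. Cox7c ran from 125 to 179 CPM in Cast (0.42 ± 0.05, adjusted p = 1.98e-09) and from 90.1 to 107 in NOD (-0.33 ± 0.05, adjusted p = 2.02e-06), with no overlap between them. Cox8a (0.33), Cox4i1, Cox6a1 and Cox7a2 (0.30 each) and Cox5a (0.19) were also higher in Cast. Cox4i1, the subunit through which ATP acts on the enzyme, ran from 258 to 312 CPM in Cast and from 156 to 233 in NZO (-0.23 ± 0.05, adjusted p = 0.000114). Cox5a was higher in WSB (0.27) and lower in NZO (-0.30).

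Cox7a2l helps join complexes III and IV into supercomplexes. It differed little, from 62.2 ± 7.32 CPM in PWK to 72.0 ± 4.6 in NZO, and was called in NZO (0.15 ± 0.05, adjusted p = 0.00654), though not without NZO 3, 4, 6 and 7 (adjusted p = 0.115). Ndufa4, once assigned to complex I and now to complex IV, had values of 0.17 in strain-129 (adjusted p = 0.0323) and -0.15 in PWK (adjusted p = 0.045). The first ended without strain-129 library 6, 7 or 8, and the second under other size factors (adjusted p = 0.0532), without the filter (0.0571) and without single libraries of several strains. Its relative Ndufa4l2, which is known to respond to low oxygen, was at most at 1.26 CPM in any library. It had means of 0.893 ± 0.232 CPM in WSB and 0.780 ± 0.161 in NZO, against 0.207 ± 0.077 in PWK and 0.258 ± 0.216 in Cast (-1.50 ± 0.28, adjusted p = 8.93e-06, and -1.20 ± 0.29, adjusted p = 0.000287).

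Complex V, ATP synthase, held the most abundant members per length, Atp5a1 at 280 and Atp5b at 239 CPM per kilobase. These form the catalytic head. Atp5b ran from 934 to 1470 CPM in Cast (median 1320), from 619 to 1040 in NZO (median 882) and from 1020 to 1210 in WSB (median 1060). It was higher in Cast (0.35 ± 0.06, adjusted p = 1.72e-06) and PWK (0.16) and lower in NZO (-0.23 ± 0.06, adjusted p = 0.00129). In B6 the value was -0.17, a call that ended without B6 library 1, 3 or 4 (adjusted p = 0.128, 0.0854 and 0.0794). Atp5a1, its partner in the head, was higher in PWK (0.23 ± 0.06, adjusted p = 0.0015) and had a value of 0.08 ± 0.07 in Cast (adjusted p = 0.283).

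Atp5o, the peripheral stalk subunit that makes the enzyme sensitive to oligomycin, ran from 109 to 173 CPM in Cast (median 158), from 103 to 130 in WSB and from 70.2 to 118 in the other strains. The log2 fold change was 0.59 ± 0.05 in Cast (adjusted p = 2.4e-14), 0.21 ± 0.05 in WSB (adjusted p = 0.000738) and -0.33 ± 0.06 in B6 (adjusted p = 4.79e-06). Cast overlapped WSB and PWK at its lower end. The subunit c gene Atp5g1 was higher in WSB (102 to 140 CPM, 0.36 ± 0.06, adjusted p = 7.8e-07) and lower in B6 (-0.30), NOD and NZO (-0.25 each). In WSB, 10 of 15 subunits of complex V were higher and 0 lower with copies summed (22.6% and 22.4% of all genes), among them Atp5e (0.34), Atp5h (0.26) and Atp5d (0.22). In NZO 6 were lower and 0 higher (19.5% and 26.7% of all genes). Among genes of like abundance the shares were 30.8% higher and 16% lower in WSB, and 25.1% lower and 19.5% higher in NZO.

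Atp5sl, now known as a factor for complex I assembly (Dmac2), and Atp5s, a related protein, were carried in by name alone. Atp5sl ran from 24.7 to 36.4 CPM in WSB and from 10.5 to 16.5 in Cast. It was higher in WSB (0.56), AJ (0.50), strain-129 (0.41) and B6 (0.30) and lower in Cast (-0.72), NOD (-0.57) and PWK (-0.37), with adjusted p from 8.08e-08 in WSB and 4.93e-09 in Cast to 0.00503 in B6. The B6 call ended without B6 library 7 (adjusted p = 0.0503).

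**Figure D5:**
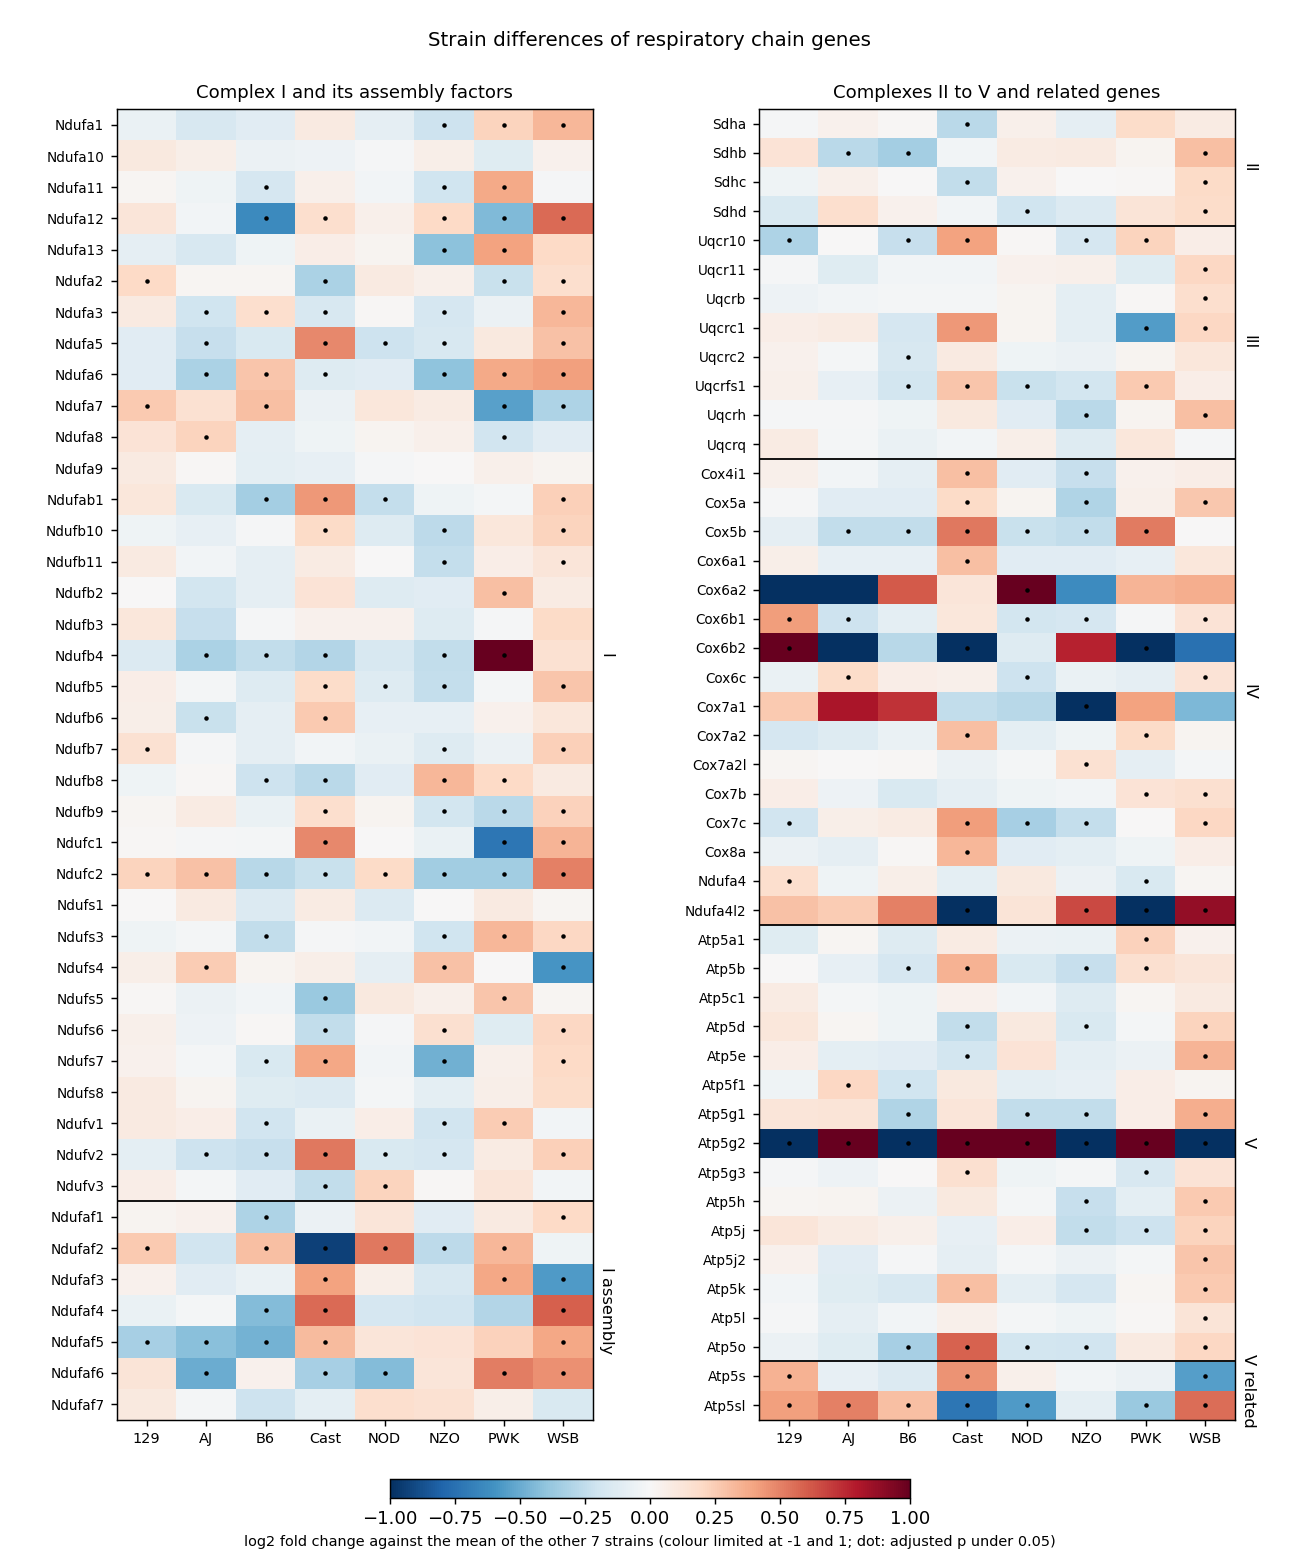
Log2 fold change of respiratory chain genes in each strain against the mean of the other 7 (colour, with the scale at the bottom), by complex. The WSB columns are mostly on the higher side and the NZO columns mostly on the lower side. Rows are as deposited, without copies, and the colour stops at -1 and 1, which Atp5g2 passes in all 8 strains.

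Promoters of 75 of the 90 members, and of 63 of the 74 subunits, were found in RefSeq (GRCm38.p6), from 250 bases before to 50 after the start. Respiratory chain promoters are known for sites of NRF1, of ETS factors such as GABP, of YY1 and of ERR receptors. The 5 promoters below were chosen because their genes carry strain patterns described above or hold such a match. Capitals mark a match to the NRF1 palindrome, to CCGGAAG (ETS) or AAGATGG (YY1) on either strand, and Cox6b2 held none of these. The promoters of Ndufb4, Atp5o, Ndufa12 and Atp5b, whose genes also differed between strains, held no such match either and are not printed. The 5 printed thus do not show how often genes with strain patterns hold a match.
Atp5g2, chr15:102670998-102671297 (- strand): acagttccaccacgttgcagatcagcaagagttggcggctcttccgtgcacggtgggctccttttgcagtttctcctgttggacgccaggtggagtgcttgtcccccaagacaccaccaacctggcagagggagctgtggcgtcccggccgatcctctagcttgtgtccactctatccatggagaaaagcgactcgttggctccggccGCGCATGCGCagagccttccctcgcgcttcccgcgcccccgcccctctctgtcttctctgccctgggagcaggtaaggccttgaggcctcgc
Cox6b1, chr7:30626065-30626364 (- strand): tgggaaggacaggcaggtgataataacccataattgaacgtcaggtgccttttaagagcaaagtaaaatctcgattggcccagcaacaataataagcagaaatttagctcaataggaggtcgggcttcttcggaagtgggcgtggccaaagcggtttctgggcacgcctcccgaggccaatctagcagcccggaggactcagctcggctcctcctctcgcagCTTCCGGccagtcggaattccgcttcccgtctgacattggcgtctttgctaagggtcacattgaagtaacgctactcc
Cox6b2, chr7:4753045-4753344 (- strand): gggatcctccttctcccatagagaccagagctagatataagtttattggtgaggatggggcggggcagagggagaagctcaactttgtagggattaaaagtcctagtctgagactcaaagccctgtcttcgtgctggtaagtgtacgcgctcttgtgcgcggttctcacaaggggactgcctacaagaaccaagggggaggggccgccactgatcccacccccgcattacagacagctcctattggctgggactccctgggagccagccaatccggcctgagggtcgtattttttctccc
Ndufs7, chr10:80249199-80249498 (+ strand): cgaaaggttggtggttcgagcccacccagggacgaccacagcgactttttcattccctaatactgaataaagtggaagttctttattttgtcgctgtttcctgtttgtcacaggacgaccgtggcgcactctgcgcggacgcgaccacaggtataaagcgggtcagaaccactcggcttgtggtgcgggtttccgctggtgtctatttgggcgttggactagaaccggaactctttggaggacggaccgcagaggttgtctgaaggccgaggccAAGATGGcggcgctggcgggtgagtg
Sdhb, chr4:140961021-140961320 (+ strand): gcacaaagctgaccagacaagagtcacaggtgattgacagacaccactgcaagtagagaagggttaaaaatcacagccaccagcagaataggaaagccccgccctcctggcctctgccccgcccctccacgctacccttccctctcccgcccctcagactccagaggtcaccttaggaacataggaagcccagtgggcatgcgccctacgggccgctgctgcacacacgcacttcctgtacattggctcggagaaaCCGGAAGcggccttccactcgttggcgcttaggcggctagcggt
The ETS match was in 15 of the 63 subunit promoters (23.8%) and in 11.9% of 17492 promoters of coding genes. The YY1 match was in 10 (15.9% against 6.37%), the NRF1 match in 5 (7.94% against 1.32%) and the ERR match, TCAAGGTCA, in 2 (3.17% against 0.332%). The Sp1 box GGGCGG was in 39.7% against 46.3%, and CCAAT in 41.3% against 39.0%. The motifs searched do not contain one another. A match is a description of the reference sequence, and the strains' own promoters were not read.

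Regulators known to act at such sites were counted beside the subunits. Ppargc1a was higher in Cast (47.7 ± 38.6 CPM, 1.80 ± 0.22, adjusted p = 5.71e-10), as were Esrra (0.74 ± 0.11, adjusted p = 1.49e-07) and Gabpa (0.36 ± 0.05, adjusted p = 5.51e-08). Cast libraries 3, 7 and 8, at 15.4, 13.1 and 12.5 CPM of Ppargc1a, lay within the range of the other strains (4.35 to 31.5). Nrf1 ran from 3.86 to 12.7 CPM in Cast and from 4.31 to 7.65 elsewhere. Tfam, which packs and transcribes mitochondrial DNA, was lower in Cast (-0.39 ± 0.05) and PWK (-0.30 ± 0.05) and higher in AJ (0.35 ± 0.05). In Cast 8 of the 19 regulators tested were higher and 5 lower (30.8% and 28.8% of all genes). In WSB 3 were higher and 3 lower (22.6% and 22.4% of all genes), and in NZO 3 and 3 (26.7% and 19.5%).

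Other mitochondrial gene lists were counted the same way. Of 77 mitochondrial ribosomal proteins, which translate the mitochondria-encoded subunits, 34 were higher and 14 lower in WSB, 34 and 10 in Cast, 24 and 18 in PWK, 1 and 30 in B6, and 4 and 27 in NZO. Of 86 cytosolic ribosomal proteins, which are no part of the mitochondrion, 31 were higher and 8 lower in WSB, 65 and 8 in Cast, 5 and 25 in B6, 5 and 39 in NZO and 3 and 58 in NOD. More calls lower than higher in B6 and NZO, and more higher than lower in WSB, were thus also seen in a list outside the mitochondrion. The shares of all genes, higher and lower, were 22.6% and 22.4% in WSB, 30.8% and 28.8% in Cast, 22.5% and 22.7% in PWK, 19.4% and 14.7% in B6, 26.7% and 19.5% in NZO and 16.7% and 11.6% in NOD. Of 18 citric acid cycle genes, 6 were higher and 2 lower in WSB, 10 and 5 in Cast, and 3 and 4 in NZO. Of 44 assembly factors not named as members, 15 were higher and 8 lower in WSB and 12 and 12 in NZO. Of 17 electron carriers and feeders, 7 were higher and 1 lower in WSB and 0 and 9 in B6. Cyc1, the cytochrome c1 of complex III that the symbol rule leaves out, was higher in WSB (0.24 ± 0.06, adjusted p = 0.00109) and Cast (0.21) and lower in B6 and NZO (-0.23 each). Cytochrome c itself, Cycs, was at 169 ± 28.1 CPM in Cast against 37.9 to 56.3 elsewhere (1.87 ± 0.07, adjusted p = 1.14e-30), and it too has many processed copies in the mouse genome.

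Library totals were 19.98 to 69.17 in units of M reads, and the 90 members took 0.594% (NZO 8) to 1.09% of them. Ndufc1, with means of 10.3 to 21.4 CPM, had at least 232 reads in every library, whereas the tissue isoforms had few. All 6 hepatocyte markers were present in every library, and 0 of 4 white fat markers had a row in the table. Rn18s-rs5, a ribosomal RNA sequence, took 6.05 to 16.0% of reads in NZO and 1.26 to 5.14% in WSB. With its share as a covariate, the counts for both strains stayed within 1.5 times the values above.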

How the data were processed

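Polyadenylated RNA of liver was sequenced, per the labels. The authors deposited estimated counts per gene (21% of values not whole), rounded here, and log2 values after a variance-stabilising transformation, used in 1 alternative. GRCm38 and DESeq2 are named in the submitters' processing notes. The sources used here do not give the aligner, counting tool, annotation or strand setting. Of 61 labelled samples, B6 5 was not analysed here, and 1 column that matched no sample was not used.

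All 60 libraries were fitted together with edgeR 4.0.16 in R 4.3.3, with TMM factors, filterByExpr and a quasi-likelihood F test. Each strain was set against the unweighted mean of the other 7. A gene is called when its Benjamini-Hochberg adjusted p over all 16165 genes is under 0.05. The SE is |log2 fold change| / sqrt(F). CPM used TMM-scaled library sizes, and log2 CPM a prior count of 2. The fit was tested on simulated data. Levels between genes are per kilobase of GENCODE M21 exon. Copies were found with BLAST+ 2.17.0+ of transcripts. Alternatives used limma 3.58.1, DESeq2 1.42.0, other scaling, filters, covariates and left-out libraries.

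The members, lists and tests were chosen with earlier results of these data known. Genes were named by a rule: the 12 members with the largest range of strain means, up to 4 called members per strain with the largest fold change among those of at least 5 CPM, complex II, tissue isoforms and core subunits. Other named members, the sums with copies and the fit without NZO 8 and NOD 1 were chosen after values were seen. A member enters all counts but is not reported here by itself.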

Additional observations from a re-analysis of the deposited data

Results flagged for a closer look

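Over 216 groups of a strain's libraries (6 to 8 each), 31 values lay far from the rest of their group by Dixon's test, which chance gives in about 1 group in 20. NZO library 8 gave 16 of them. Its mean log2 CPM was 5.76 over all subunits (next lowest 6.23), 5.06 in complex I, 6.71 in II, 6.19 in III, 6.22 in IV and 6.62 in V. Its CPM was 78.5 for Cox6b1, 18.33 for Ndufs7, 220.9 for Sdha, 75.91 for Sdhb, 82.36 for Sdhc, 87.73 for Sdhd and 99.36 for Uqcrc1, each the lowest of NZO. With copies summed it was 32.52 for Ndufb4 and 53.85 for Cox5b. Its Cox6b2, at 0.6637 CPM, was the highest of NZO.

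In strain-129, library 6 was highest for complex II (7.646), library 4 for Cox6a2 (0.2752 CPM) and library 7 for Atp5g2 with its copy (70.79 CPM), and library 1 was lowest for Ndufb4 with its copy (36.24 CPM). In B6, library 2 was highest for Ndufs7 (36.85 CPM) and library 7 for Ndufaf4 (27.63 CPM). In NOD, library 4 was lowest for Sdha (421.8 CPM) and library 1 highest for Cox6a2 (6.142 CPM). In NZO, library 7 was highest for Cox6a2 (0.4998 CPM) and library 6 for Ndufaf6 (9.398 CPM). In WSB, library 9 was highest for Sdhd (191.5 CPM), Atp5sl (36.4 CPM) and Ndufb4 with its copy (61.48 CPM), library 6 for Ndufc1 (22.8 CPM) and library 8 for Cox6a2 (0.8238 CPM).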

How the results depend on the processing

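The number of members called among strains was 73 to 80 over all alternatives. With library totals only, strain-129 had 23 higher and 2 lower, B6 15 lower, NZO 3 higher and 55 lower, and WSB 20 higher and 11 lower, with a WSB median of 0.03. The replicate numbers were not taken as pairing, since not every same-numbered pair was over 0.1: 131 of 181 were, with a median correlation of 0.20 and a lowest of -0.43, against a median of -0.07 for other pairs, and 7 of 60 libraries were closest to their own number. With the number as a replicate block, strain-129 had 7 lower, and no other count moved by over 1.5 times. Without NZO libraries 3, 4, 6 and 7, which have the largest Rn18s-rs5 shares of NZO, NZO had 2 higher. Leaving out each library in turn, the NOD lower count ran from 13 to 22, the 22 without NZO replicate 8. Shares of all genes are not given for the block and left-out fits, so these counts describe members only.

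Of 132 named calls of a member in a strain, all 132 kept their side under DESeq2 and with Xist as a covariate, 19 ended with library totals only, 9 with copies summed, 6 without NZO 3, 4, 6 and 7, 4 with the Rn18s-rs5 share, 3 with limma, 3 with the block, 2 with RLE size factors, 2 without the filter and 1 without NZO 8 and NOD 1. Leaving out each library in turn, 131 repeats ended a call and 7788 did not. Copies summed also reversed Atp5g2 in strain-129 (0.08), AJ (-0.10), B6 (0.04), Cast (-0.04), NOD (-0.07) and WSB (0.12) and Ndufb4 in PWK (-0.15), by construction of the sum. Cox6a2 in NOD was -1.70 without NZO 8 and NOD 1, and leaving out each library in turn it ran from -1.69 (without NOD replicate 1) to 2.55. For the library-total, block and NZO results the cause was not tested. Rare isoforms with a few reads are limited by depth.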

Other observations

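Outside the 90 members, a few genes of the lists that serve the chain also differed between strains. Lyrm7, a factor that inserts the Rieske protein Uqcrfs1 into complex III, was at 5.36 ± 0.711 CPM in PWK, 4.64 ± 0.786 in Cast and 4.27 ± 0.841 in NZO, at 1.22 ± 0.251 in B6 and at 0.271 to 0.450 in AJ, strain-129, NOD and WSB. The log2 fold change was 2.58 ± 0.13 in PWK (adjusted p = 5.51e-25) and -2.31 ± 0.23 in AJ (adjusted p = 3.63e-12). Mterf3, a regulator of mitochondrial transcription and ribosomes, was at 67.9 ± 16.4 CPM in PWK and 31.9 ± 5.05 in Cast against 12.6 to 19.3 elsewhere (2.04 ± 0.06 in PWK, adjusted p = 1.22e-34). Suclg2, of the citric acid cycle, was at 348 ± 61.6 CPM in NZO and 127 ± 30 in Cast (0.81 ± 0.07, adjusted p = 1.35e-13, and -0.85 ± 0.09, adjusted p = 9.09e-12).

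Of 13 subunits encoded in mitochondrial DNA, 9 were higher and 1 lower in Cast (30.8% and 28.8% of all genes). In PWK 0 were higher and 8 lower (22.5% and 22.7% of all genes). Among the 13, mt-Co2 was at 13.3 ± 6.61 CPM in Cast and 21.2 ± 18.2 in PWK, against 2130 to 2650 elsewhere. The row mt-Nd4l was at 14.0 ± 5.79 CPM in PWK, against 597 to 784 elsewhere. The cause was not tested.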
